A study of Homo sapiens with 6 samples.

Results

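Gene expression of the PIWI-interacting RNA (piRNA) pathway was examined with and without decitabine in SUM159, a human cell line established from a triple-negative carcinoma of the breast. The gene list held 10 members: MAEL, TDRD1, TDRD6, TDRD9, TDRD12, PIWIL1, PIWIL2, PIWIL4, ASZ1 and GTSF1. A member was measured by the array row whose platform annotation gave its symbol as the single gene symbol. Rows were selected on the highest mean over the 6 arrays where a gene had several, but each measured member had 1 row. Of the 10 members, 9 had a named row, and ASZ1 was not analysed here. The 9 genes stood among 14884 genes with a named row. The genes were chosen by pathway with their changes after decitabine in these data already known. The values below therefore describe the members, their adjusted p-values are those of a fit across all genes, and their count of rises is no independent support.

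There were 2 groups of 3 arrays. In the decitabine group, SUM159 cells had been kept for 72 h in medium with 1 µM decitabine, with new medium each day. In the untreated group, cells had been kept for 72 h in NT medium, which was read as not treated. The untreated titles carry the dose too, and the labels do not state whether NT medium held the drug's solvent. The labels differ on the drug, which is decitabine in the design text and in descriptions of the treated arrays but a deoxy-azacytidine in the protocol, and decitabine is the name used here. Decitabine is a deoxycytidine analogue that is incorporated into DNA, traps DNA methyltransferases and so lowers DNA methylation. DNA methylation itself was not measured. All arrays were from a single line in culture, and the labels do not say whether same-group arrays came from separate cultures. With arrays paired by replicate number, the p-values therefore rest on the spread of the change between these pairs. Without the pairing they rest on the spread between these arrays. Either spread may be technical. In both fits limma also draws each gene's spread toward a value estimated across all genes. The SEs and p-values below are thus moderated and are not those of a gene's own pairs or arrays alone.

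In germ cells, piRNAs are small RNAs that guide PIWI proteins to transcripts of transposons. PIWI proteins cut such transcripts or direct methylation to transposon DNA, and Tudor domain proteins hold PIWI proteins and their helpers together in germ granules through methylated arginines. Most genes of the pathway are active in the germline and silent in other adult tissues, and several are known to have methylated promoters in somatic cells.

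The deposited values are read as log2 expression. The stated sources do not name the log base, so each fold and log2 change rests on that reading. Medians over all 48226 rows were 3.03 and 2.98 on the untreated and decitabine arrays of replicate 1, and 2.29 to 2.42 on the other 4 arrays. Arrays with the same replicate number deviated together from their group means (correlations of 0.558 to 0.682 over genes, against -0.483 to -0.006 for other pairs). Deviations from a group mean cancel out within the group, so positive same-number values bring negative ones in other pairs by arithmetic. Changes were taken within same-numbered pairs because the titles number the replicates. As markers of the line, VIM ran from 9.13 to 9.68 and CD44 from 6.14 to 7.0 in untreated cells. The hormone receptor genes ESR1 and PGR ran from 1.78 to 2.43 and from 1.54 to 2.28. Of the other listed line markers, KRT18 ran from 7.57 to 7.96 and KRT8 from 3.68 to 4.45 in untreated cells. KRT5 ran from 2.35 to 2.97 and EPCAM from 2.55 to 3.51, and ERBB2 had no named row.

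After decitabine, 8 of the 9 measured members rose and none fell. The adjusted p of limma, over all 14884 genes and with the replicate number as a block, was under 0.05 for each of the 8. In the same fit 7.79% of all genes rose and 5.37% fell. The median change of the 9 members was 2.29 in log2 units, with pair medians of 2.37, 2.64 and 2.56, against -0.02 over all genes. In the 8 genes all decitabine values lay above all untreated values, as in 11.3% of all genes, and in no member did they lie below, as in 8.74% of all genes. MAEL changed most and PIWIL1 did not pass the test. At an unadjusted p under 0.05 in this fit the count of members that were lower was also 0, where 1921 of all genes were lower. Without the block the same 8 members were the ones that passed, beside 2.01% of all genes that rose and 1.02% that fell in that fit. More RNA per cell and more cells with the RNA cannot be told apart in bulk samples.

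**Figure D1:**
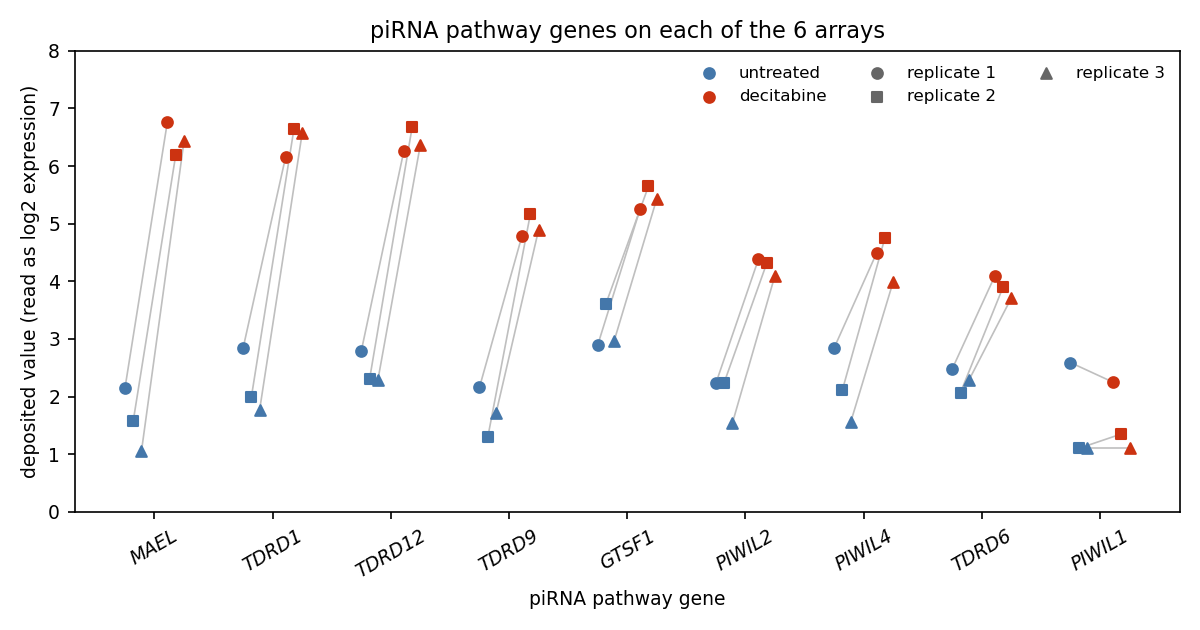
Deposited value (read as log2 expression, vertical axis) of the 9 measured piRNA pathway genes on each array, untreated in blue and decitabine in red, with a marker shape per replicate and a grey line joining same-numbered arrays. In every gene but PIWIL1 the 3 decitabine points lie above the 3 untreated points, for MAEL at 6.19 to 6.77 against 1.05 to 2.14.

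Promoter sequence is shown for 5 genes because decitabine acts on methylation at CG dinucleotides, and because 4 of the 5 windows were picked for holding the E-box CACGTG, with PIWIL1 added as a window without it. The sequences are RefSeq's, on GRCh38.p14, and give the 250 bases before an annotated start, 5′ to 3′ on the gene's strand. Capitals mark every CG, so an E-box reads as caCGtg. MAEL, TDRD1, TDRD12 and PNLDC1, a piRNA-trimming enzyme outside the member list, rose after decitabine and hold an E-box in the window. The motif did not separate genes that rose from genes that did not pass. TDRD6, TDRD9, GTSF1 and HENMT1 rose with no E-box in their windows, and TDRD5 and MORC1 hold one and did not pass the test. The windows are chr1:166989030-166989279 for MAEL, chr10:114179103-114179352 for TDRD1, chr19:32719517-32719766 for TDRD12, chr6:159800026-159800275 for PNLDC1 and chr12:130337637-130337886 for PIWIL1, all on the plus strand.
MAEL: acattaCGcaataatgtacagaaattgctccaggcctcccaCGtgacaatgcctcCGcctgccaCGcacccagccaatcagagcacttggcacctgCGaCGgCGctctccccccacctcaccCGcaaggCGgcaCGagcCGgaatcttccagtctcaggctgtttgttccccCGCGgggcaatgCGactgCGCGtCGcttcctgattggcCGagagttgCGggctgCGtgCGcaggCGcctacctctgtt
TDRD1: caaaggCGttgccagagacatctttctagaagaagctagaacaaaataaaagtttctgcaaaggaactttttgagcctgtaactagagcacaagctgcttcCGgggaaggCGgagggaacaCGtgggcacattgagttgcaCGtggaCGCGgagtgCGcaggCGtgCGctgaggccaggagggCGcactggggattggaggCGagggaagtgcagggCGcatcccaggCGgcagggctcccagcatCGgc
TDRD12: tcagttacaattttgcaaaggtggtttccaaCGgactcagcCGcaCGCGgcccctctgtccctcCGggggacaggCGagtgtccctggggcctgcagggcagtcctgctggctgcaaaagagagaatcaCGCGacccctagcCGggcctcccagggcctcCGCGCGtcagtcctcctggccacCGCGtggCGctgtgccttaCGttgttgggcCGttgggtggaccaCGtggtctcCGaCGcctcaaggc
PNLDC1: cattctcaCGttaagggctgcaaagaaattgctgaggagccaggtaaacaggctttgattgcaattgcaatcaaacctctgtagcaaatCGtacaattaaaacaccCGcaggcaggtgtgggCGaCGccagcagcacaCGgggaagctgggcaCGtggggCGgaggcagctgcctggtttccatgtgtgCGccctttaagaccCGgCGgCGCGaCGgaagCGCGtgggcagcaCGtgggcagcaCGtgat
PIWIL1: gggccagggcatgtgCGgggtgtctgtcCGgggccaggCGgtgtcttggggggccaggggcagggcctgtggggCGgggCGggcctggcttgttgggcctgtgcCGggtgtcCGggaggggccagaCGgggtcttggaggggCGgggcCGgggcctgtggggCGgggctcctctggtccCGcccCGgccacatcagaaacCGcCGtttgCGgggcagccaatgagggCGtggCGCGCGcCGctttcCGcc

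MAEL encodes maelstrom, a germ granule protein needed for transposon silencing and meiosis. Its untreated values were 2.14, 1.57 and 1.05 in replicates 1 to 3, and its decitabine values were 6.77, 6.19 and 6.43. The groups were far apart, and the untreated spread exceeded the decitabine spread. Within pairs the change was 4.63, 4.62 and 5.38. The mean change of 4.88 (SE 0.19, limma adjusted p = 2.61e-04) was a 29.4-fold rise on the log2 reading and ranked 5 among the 14884 genes. RefSeq gives MAEL 2 starts. The window printed above belongs to the second, was picked because it holds an E-box (211 bases before the start), and has 22 CG. That of the first holds 51, more than 99.9% of all promoter windows.

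TDRD1 encodes a Tudor domain scaffold that binds PIWI proteins through their methylated arginines. Its values were 2.84, 1.99 and 1.77 without the drug and 6.16, 6.64 and 6.57 with it. The pair of replicate 1 had the smallest change, 3.32, against 4.65 and 4.8. The mean change was 4.26 (SE 0.30, limma adjusted p = 0.00138), a 19.1-fold rise. Its printed window has 2 E-boxes, which begin 131 and 111 bases before the start.

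TDRD12 encodes a Tudor domain protein with a helicase region that takes part in making secondary piRNAs. Its values went from 2.79, 2.30 and 2.28 to 6.26, 6.67 and 6.37. Untreated and decitabine arrays each agreed closely among themselves. The pairs changed by 3.47, 4.37 and 4.09, with a mean of 3.98 (SE 0.19, limma adjusted p = 5.96e-04). Its single E-box begins 25 bases before the start.

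TDRD9 encodes an ATP-dependent helicase with a Tudor domain, a partner of the PIWI protein that acts in the nucleus. Its values were 2.16, 1.29 and 1.71 in untreated cells and 4.79, 5.16 and 4.89 after decitabine. The decitabine values spanned less than the untreated values did. The mean change was 3.23 (SE 0.24, limma adjusted p = 0.00157), with 2.63, 3.87 and 3.18 in the pairs. The window before its start held 35 CG, more than 94.2% of windows, and no E-box.

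TDRD6 encodes a large protein with several Tudor domains that builds the chromatoid body of spermatids. It went from 2.48, 2.07 and 2.28 to 4.09, 3.90 and 3.71. Its groups were separate on every array, with the narrowest range of pair changes among the Tudor members, 1.43 to 1.83. The mean change of 1.62 (SE 0.14, limma adjusted p = 0.00240) was the smallest of the 8 members that rose.

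GTSF1 encodes a small zinc finger protein that assists PIWI proteins in silencing. It had untreated values of 2.89, 3.61 and 2.97 and decitabine values of 5.26, 5.65 and 5.43. Replicate 2 was the highest in both groups. The pairs changed by 2.37, 2.04 and 2.46, with a mean of 2.29 (SE 0.14, limma adjusted p = 0.00104). The window before its start held 8 CG, the fewest among the members with a window.

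The 3 measured PIWI members are the proteins that carry piRNAs, of which 2 rose and 1 did not pass the test. PIWIL2, which loads piRNAs in the cytoplasm of male germ cells, went from 2.23, 2.24 and 1.54 to 4.38, 4.31 and 4.10. Its mean change was 2.26 (SE 0.15, limma adjusted p = 0.00114). PIWIL4, the nuclear PIWI protein linked to methylation of transposon DNA, went from 2.84, 2.11 and 1.55 to 4.49, 4.75 and 3.99. Its mean change was 2.24 (SE 0.21, limma adjusted p = 0.00337). Pair by pair, the PIWIL2 change minus the PIWIL4 change was 0.50, -0.57 and 0.12, which is 0.02 ± 0.54 (SD, n = 3 pairs). Both groups of values were separate in each of these genes.

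PIWIL1, the PIWI protein of meiotic and later male germ cells, had untreated values of 2.59, 1.10 and 1.11 and decitabine values of 2.25, 1.35 and 1.11. Both arrays of replicate 1 were high and the other 4 arrays low, and the groups overlapped. Replicate 1 is also the pair with the higher array medians. The change was -0.03 (SE 0.15, 95% interval -0.41 to 0.35, limma adjusted p = 0.929). The changes of PIWIL2 and PIWIL4 exceeded that of PIWIL1 by 2.29 ± 0.41 and 2.27 ± 0.25 (SD, n = 3 pairs), in the same direction in all 3 pairs. An exact two-sided permutation test that flips the signs of the pairs gave p = 0.25 for each, the smallest p that 3 pairs allow. PIWIL1 was set as the contrast with its values known, so the signs were known too and this p is no support. PIWIL3, the remaining PIWI gene and outside the member list, was named after its values were seen and changed by -0.03 (SE 0.14, limma adjusted p = 0.914).

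**Figure D2:**
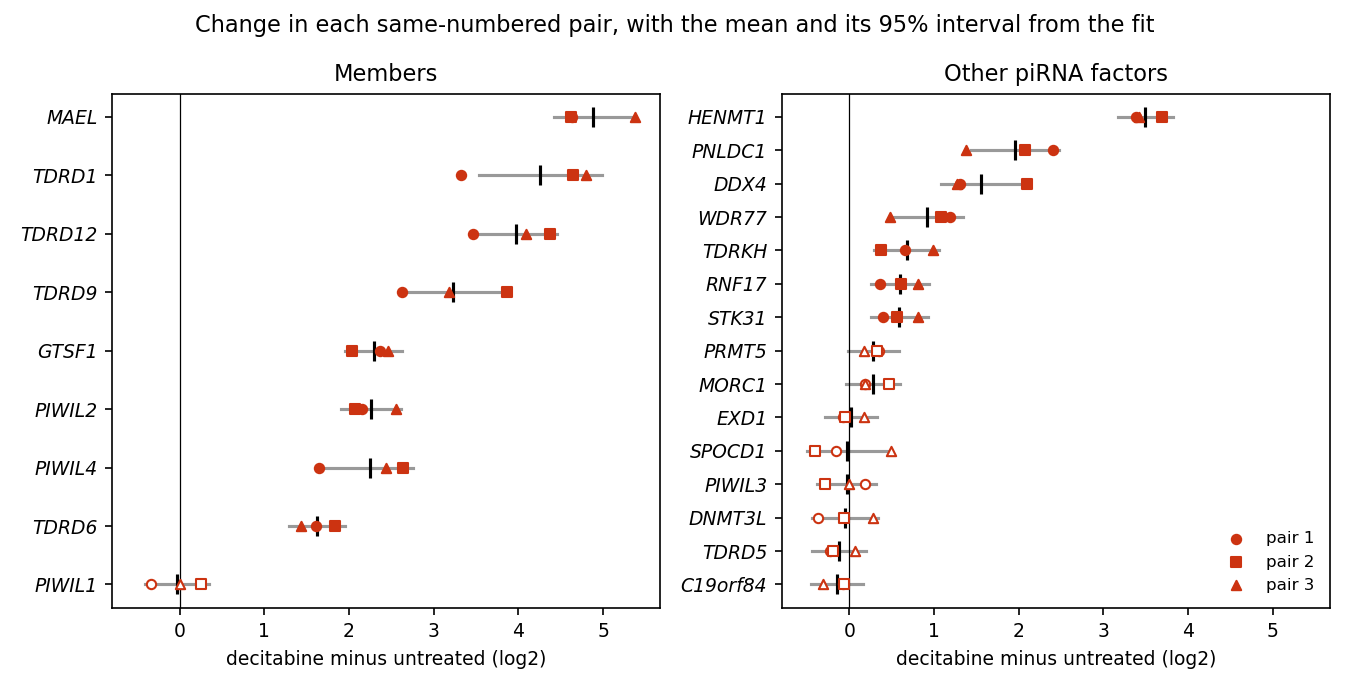
Decitabine minus untreated (log2, horizontal axis) in each same-numbered pair for the 9 members (left) and 15 other piRNA factors (right), with a tick at the mean and a grey bar for its 95% interval from the fit. Filled markers are genes that rose at an adjusted p under 0.05, and open markers did not pass, among them PIWIL1 at -0.34, 0.25 and 0.00.

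Ordered by mean change, the members formed overlapping steps. The pair changes of MAEL (4.62 to 5.38) overlapped those of TDRD1 (3.32 to 4.8), which overlapped those of TDRD12 (3.47 to 4.37), which in turn overlapped those of TDRD9 (2.63 to 3.87). Every pair change of TDRD9 lay above those of GTSF1 (2.04 to 2.46) and PIWIL2 (2.07 to 2.56), and its lowest, 2.63, lay within the range of PIWIL4 (1.65 to 2.64). PIWIL4 overlapped TDRD6 (1.43 to 1.83), and PIWIL1 (-0.34 to 0.25) lay below all the others. The 4 largest changes thus belonged to MAEL and 3 Tudor domain genes, and the fourth measured Tudor member, TDRD6, had the smallest rise. The plot of change against untreated value shows that these members had low untreated values, 1.05 to 3.61. Every member but GTSF1 lay below the all-row median of each untreated array (3.03, 2.42 and 2.29). By untreated mean, the members ran from percentile 7.3 of all genes (MAEL) to percentile 43 (GTSF1). The table used gives no measure of background, so the sizes and order of these rises hold for the deposited scale.

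**Figure D3:**
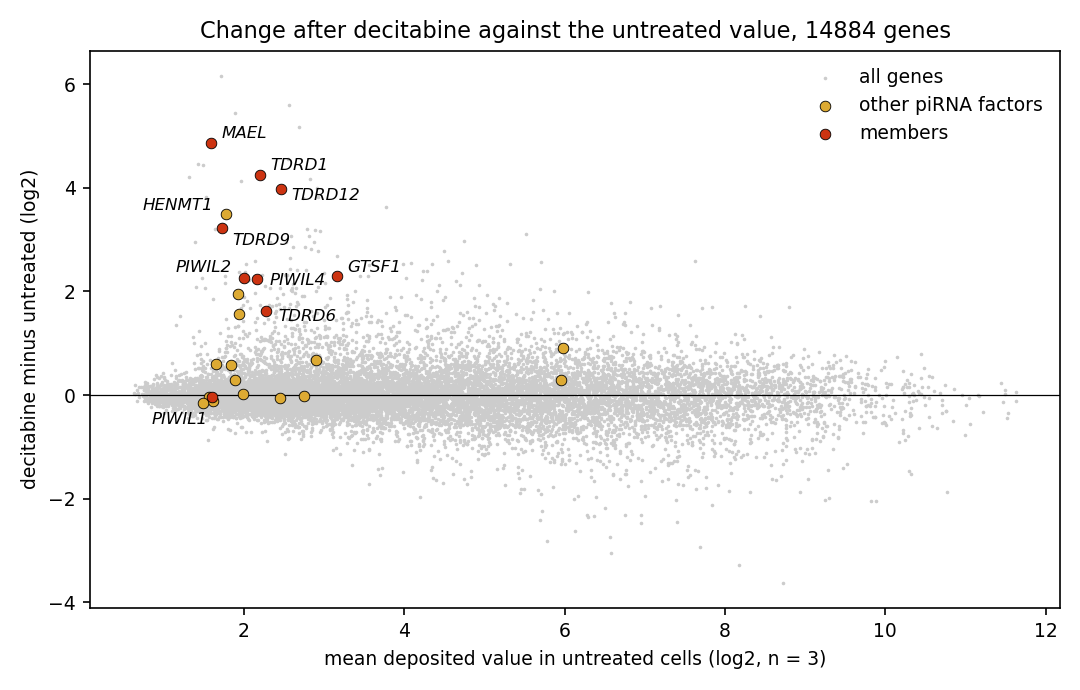
Decitabine minus untreated (log2, vertical axis) against the mean untreated value (log2, horizontal axis) for 14884 genes in grey, with the 9 members in red and 15 other piRNA factors in yellow. MAEL (4.88), TDRD1 (4.26) and TDRD12 (3.98) lie near the upper edge of the cloud at low untreated values, and PIWIL1 lies on the zero line.

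Other genes of the pathway were taken from a list of 22 factors, of which 15 had a named row. Of these, 7 rose and 8 did not pass the test, where 7.79% of all genes rose. By limma none fell, also at an unadjusted p under 0.05 (1921 of all 14884 genes were lower), and the median change was 0.28. Without the replicate block 2 of the 7 passed, HENMT1 and PNLDC1. HENMT1, the methyltransferase that seals the 3′ end of piRNAs, went from 2.09, 1.60 and 1.62 to 5.47, 5.29 and 5.04. Its groups were far apart, and its pairs changed by 3.38, 3.69 and 3.42. The mean change of 3.50 (SE 0.13, limma adjusted p = 2.61e-04) lay between those of TDRD12 and TDRD9. PNLDC1, the exonuclease that trims piRNA precursors to length, went from 1.84, 1.98 and 1.95 to 4.25, 4.05 and 3.33, a change of 1.95 (SE 0.21, limma adjusted p = 0.00489). Its untreated values were nearly equal and its decitabine value of replicate 3 was the lowest. The 3 E-boxes of its window begin 99, 19 and 8 bases before the start.

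The RNA helicase gene DDX4, the VASA protein of germ granules, rose by 1.56 (SE 0.20), from 2.58, 1.20 and 2.04 to 3.89, 3.30 and 3.31. WDR77, the partner of the arginine methyltransferase PRMT5, rose by 0.92 (SE 0.17), while PRMT5 itself changed by 0.28 with an adjusted p of 0.199 by limma. Smaller rises were those of TDRKH, a Tudor protein of mitochondria that aids trimming, by 0.68, of RNF17, a Tudor domain protein of germ cells, by 0.59, and of STK31, a Tudor domain kinase-like protein, by 0.59. For these 5 genes that rose, DDX4, WDR77, TDRKH, RNF17 and STK31, limma gave adjusted p-values from 0.00743 to 0.0451 with the block and from 0.067 to 0.413 without it. The 8 genes that did not pass changed by -0.15 to 0.28. They included the Tudor gene TDRD5, the piRNA-directed methylation factors SPOCD1 and C19orf84, and DNMT3L, a cofactor of de novo methylation, which are named after their values were seen.

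Tudor domain genes outside the pathway changed in both directions. Of 9 measured among 11 listed, 2 rose and 1 fell, beside 7.79% and 5.37% of all genes, with a median change of 0.01. LBR, a protein of the inner nuclear membrane, rose by 0.77 and MTF2, a Polycomb accessory protein, by 0.84, and TDRD3, a topoisomerase partner, fell by 0.69 on the log2 scale. Their limma adjusted p-values were 0.0139, 0.0164 and 0.0264, and without the block 0.0853, 0.107 and 0.114. TDRD3 shares the name stem of the members but not their direction. Of 12 listed genes of the Argonaute and microRNA machinery, 5 were measured and none passed, where 13.2% of all genes did. Their changes ran from -0.37 for XPO5, the microRNA precursor exporter, to 0.49 for TNRC6A, an Argonaute partner. At an unadjusted p under 0.05, limma gave 2 higher and 1 lower with the block and none without it. Over all 14884 genes, 2285 were higher and 1921 lower at that p with the block, and 1210 and 862 without it. The Argonaute genes themselves had no named row.

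Of 3 listed activators of pathway genes, 2 were measured and both rose, beside 7.79% of all genes. Their changes were below those of the 8 risen members. MYBL1, the transcription factor that drives piRNA genes in meiotic cells, went from 6.13, 5.31 and 4.98 to 6.63, 6.42 and 5.95. Its groups overlapped, since replicate 1 was high in both, but each pair rose, by 0.50, 1.11 and 0.97. The mean change was 0.86 (SE 0.16), with a limma adjusted p of 0.0226, and 0.286 without the block. BTBD18, a nuclear factor that promotes piRNA precursor transcription, rose by 0.92 (SE 0.13, limma adjusted p = 0.00922, and 0.136 without the block). Of 16 listed repressors of germline genes, 13 were measured, with a median change of 0.38. In this list 2 rose, beside 7.79% of all genes. None fell at the adjusted threshold, with the block or without it. At an unadjusted p under 0.05, limma gave 7 repressors higher with the block and 3 without it, and none lower in either fit. Over all 14884 genes, 2285 and 1210 were higher at that p, and 1921 and 862 lower. PCGF6, a subunit of the Polycomb complex that keeps germline genes silent, rose by 0.67 (SE 0.14, limma adjusted p = 0.0343), and MORC2, a chromatin-compacting ATPase, by 0.85 (SE 0.16, limma adjusted p = 0.0233). Without the block these were 0.255 and 0.0878. TRIM28, the corepressor of zinc finger proteins, had the smallest value, -0.14 (SE 0.12, limma adjusted p = 0.512).

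**Figure D4:**
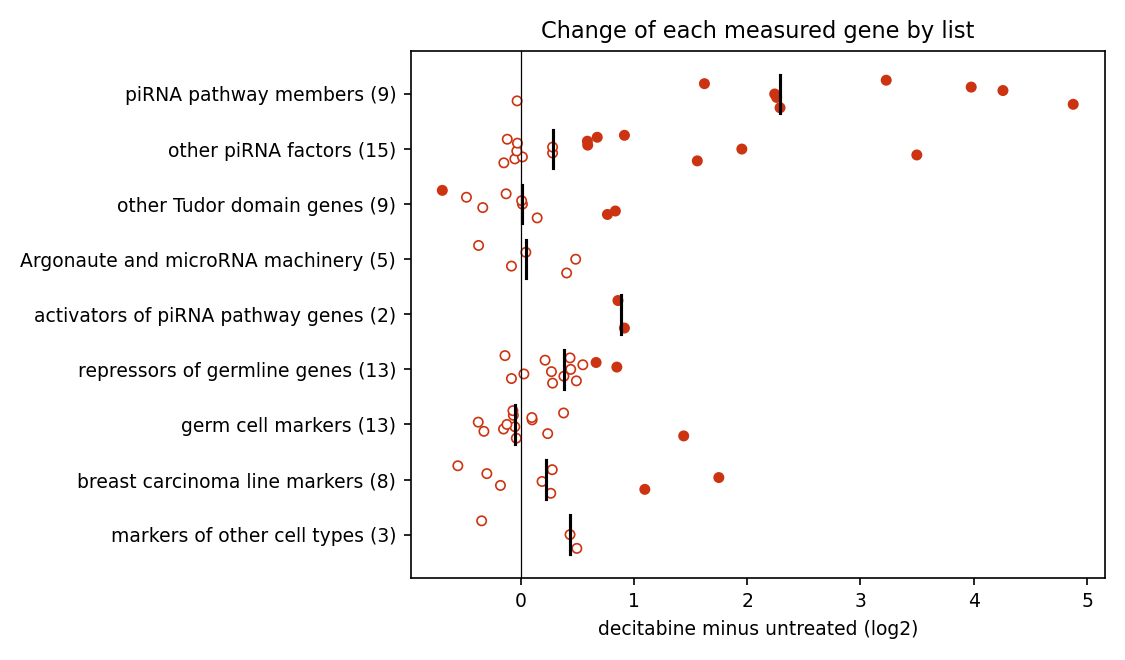
Decitabine minus untreated (log2, horizontal axis) of each measured gene in 9 lists, with the number measured in brackets, filled where the adjusted p was under 0.05 and a black bar at the median. The members have a median of 2.29, and the medians of the other lists run from -0.05 to 0.89.

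Of 13 measured germ cell markers outside the pathway, 1 rose, beside 7.79% of all genes, and the median change was -0.05. None fell by the adjusted p of limma, beside 5.37% of all genes. At an unadjusted p under 0.05, 1 was lower with the block and none without it, where 1921 and 862 of all 14884 genes were. The marker that rose was DAZL, an RNA-binding protein of germ cells, from 4.07, 3.43 and 3.53 to 5.31, 4.74 and 5.30, a change of 1.44 (SE 0.15, limma adjusted p = 0.00448). NANOS3, an RNA-binding factor of germ cells, had the lowest change, -0.37 (limma adjusted p = 0.113). The mean over the 13 markers was 2.32 to 3.04 on untreated arrays and 2.41 to 3.0 on decitabine arrays. For the 9 members the same mean was 1.81 to 2.55 and 4.73 to 4.96. The marker list does not cover all germ cell genes. HORMAD1 and GCNA, germ cell genes outside it, rose by 5.45 and 4.56. They are named below because they changed most like MAEL, so their rise was fixed by that choice and is no support. Of 10 listed markers of other cell types 3 were measured, CD68, PECAM1 and VWF. They had means of 3.64 to 4.27 and 3.88 to 4.26, and none passed the test, where 13.2% of all genes did. The changes ran from -0.34 for VWF, the von Willebrand factor of endothelium, to 0.50 for CD68, a macrophage marker (limma adjusted p of 0.295 and 0.0739). At an unadjusted p under 0.05, limma gave 2 of the 3 higher with the block and 1 without it, beside 2285 and 1210 of all 14884 genes. Of 8 measured markers of breast carcinoma lines, 2 rose, beside 7.79% of all genes. KRT5 and EPCAM rose by 1.75 and 1.10, with limma adjusted p-values of 0.0295 and 0.00829 (0.0497 and 0.127 without the block). VIM, the mesenchymal filament protein vimentin, went from 9.68, 9.13 and 9.27 to 8.66, 8.79 and 8.97. All its decitabine values lay below all its untreated values, as in 8.74% of all genes. Its change of -0.55 (SE 0.18, limma adjusted p = 0.104, and 0.317 without the block) did not pass the test. At an unadjusted p under 0.05, limma gave 2 of these markers higher and 1 lower, with the block and without it. Over all 14884 genes, 2285 were higher and 1921 lower with the block, and 1210 and 862 without it. The part of these marker changes in the results on the members was not tested.

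The promoter windows of the members were set beside all 35114 RefSeq windows of the same 250 bases. Of the 10 members, 8 had a window, 10 windows in all, since MAEL and TDRD1 each have 2. Their CG counts ran from 8 (GTSF1) to 51 (MAEL) with a median of 20.5, against a median of 11 over all windows, with quartiles of 3 and 23. PIWIL1 had 22 CG, the same as the printed window of MAEL, and CG counts did not order the members by their change. CACGTG, which reads the same on both strands, was in a window of 3 of the 8 members, MAEL, TDRD1 and TDRD12, against 7.7% of all 27303 genes with a window. Among the other factors it was in 4 of 17, PNLDC1, STK31, TDRD5 and MORC1, the last 2 of which did not pass the test. TCCCGC, a core of E2F sites, was in 2 of the 8 members (PIWIL1 and ASZ1) and 27.0% of genes. CAACNG, a core of MYB sites, was in 2 of the 8 (TDRD12 and GTSF1) and 31.3% of genes. Both were searched on both strands, and in 0 of the 33 windows of members and other factors did a match of either overlap an E-box. These matches describe the letters in the windows and not binding.

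**Figure D5:**
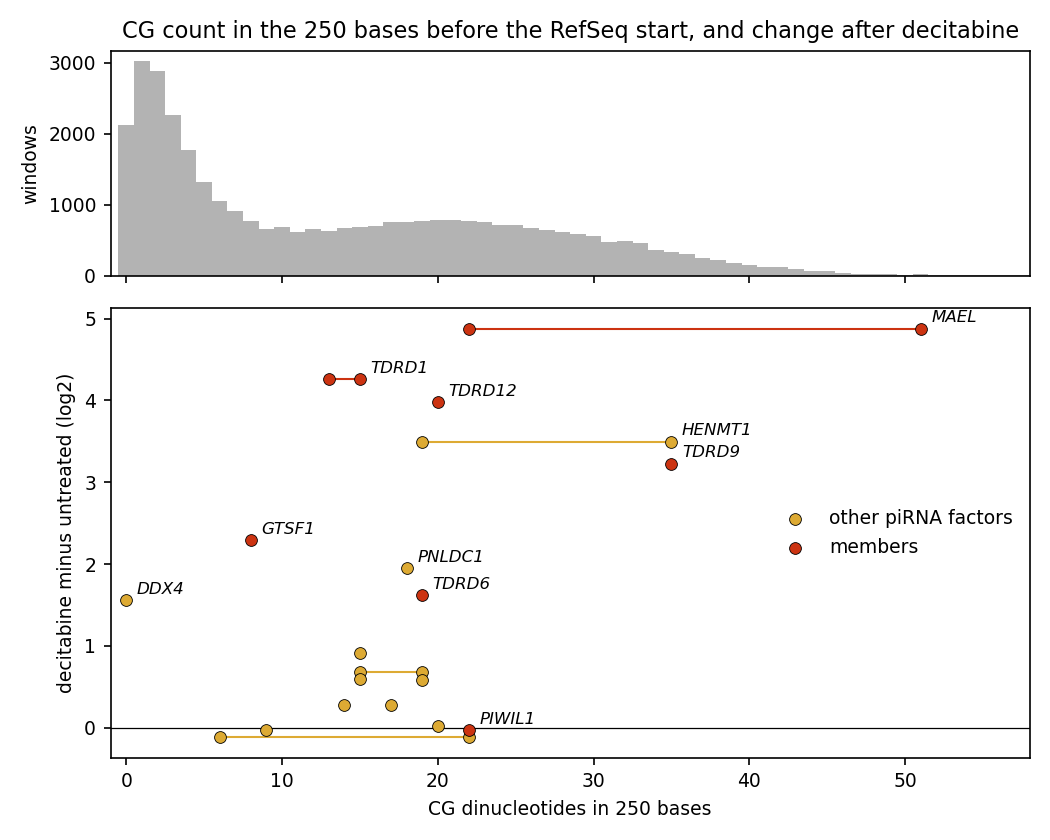
Top, number of RefSeq promoter windows (vertical axis) by their count of CG dinucleotides in 250 bases (horizontal axis). Bottom, change after decitabine (log2) against that count for members (red) and other piRNA factors (yellow), a line joining windows of a gene; MAEL spans 22 to 51 CG and PIWIL1 lies at 22 CG with a change of -0.03.

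By the distance rule, the 5 genes whose 6 values, each taken minus the untreated mean, lay closest to those of MAEL were MT1L, HORMAD1, GCNA, STOM and LINC02582. Euclidean distances over the 6 arrays were 0.84, 1.03, 1.05, 1.08 and 1.21 on the log2 scale. HORMAD1 and GCNA are germ cell genes, the former of the meiotic chromosome axis and the latter a germ cell nuclear antigen. MT1L is a metallothionein pseudogene, whose row may also read its near-identical copies, STOM encodes the membrane protein stomatin and LINC02582 is a long noncoding RNA. In the order of the distances, the changes of the 5 genes were 4.46, 5.45, 4.56, 5.18 and 4.44. The rule picks genes that change as MAEL does, so these rises were fixed by it and are no support.

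With any same-numbered pair left out, 1 residual degree of freedom remained and no gene of the 14884 passed by limma, although 1412 to 1977 were higher at an unadjusted p under 0.05. The adjusted p-values of the 8 members were then 0.0636 to 0.135, and all 8 had an unadjusted p under 0.05 each time. Without the block and without a single array, 6 to 8 of the 8 passed. The adjusted p of TDRD6 was 0.0523 without untreated replicate 2 and 0.0513 without the decitabine array of that number. That of PIWIL4 was 0.0828 and 0.0809 without these, and 0.0513 without untreated replicate 3.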

How the data were processed

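Total RNA of SUM159 cells was measured on 6 arrays with biotin-labelled samples, per the labels. The submitters' processing notes name the Transcriptome Analysis Console as the authors' tool. Of its version and settings, the normalization and any filter or genome build, nothing is given in the sources used here. Because the authors' deposited values ran from 0.17 to 12.89, they were taken as log2.

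Of 48226 rows, 16098 had 1 gene symbol in the platform annotation, none had several and 32128 had none. Current symbols were taken from RefSeq (GRCh38.p14) by Entrez Gene ID, in which all 16098 matched, and gave 14884 genes, 779 with more than 1 row. The row of the highest mean stood for its gene. No normalization or filter was added. Groups and replicate numbers came from the sample titles.

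Groups were compared with limma 3.58.1 (lmFit, eBayes) in R 4.3.3 with the replicate number as a block, two-sided, with Benjamini-Hochberg adjustment over all genes. "Rose" and "fell" mean an adjusted p under 0.05. The fit with the block had 2 residual degrees of freedom per gene, beside 3.97 prior degrees of freedom estimated across all genes. The block follows the titles, and the deviations of same-numbered arrays were checked for correlation (0.682, 0.595 and 0.558). That check cannot part samples grown together from arrays processed together. The fit was tested on simulated data. No test was made over a list as a whole. Alternatives were the fit without the block, quantile normalization, median centring and leaving out the dimmer 50% of genes. Others were the fit and adjustment over all rows, an intensity trend in the prior, the row of the lowest mean, and leaving out pairs. The members, lists, tests and motifs were chosen with earlier results of these data known. Named genes are every measured member, genes of other lists past the threshold (where fewer than 3, also the largest and smallest change), and the 5 nearest to MAEL. With 3 arrays per group, the number of arrays limits the precision.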

Additional observations from a re-analysis of the deposited data

How the results depend on the processing

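The 8 members that rose kept direction and call without the block, with quantile normalization, median centring, adjustment over all rows and an intensity trend (adjusted p of 5.24e-07 to 0.0166), and each has a single row. Without the block, over all rows and with the trend the change itself is the same by design, so only the call could differ. The changes of these 8 members moved by at most 0.04 with quantile normalization or median centring. Median centring shifts all genes of an array alike. Leaving out the dimmer 50% of genes by their mean over all arrays kept 4 members, MAEL, TDRD1, TDRD12 and GTSF1. All 4 had untreated means (1.59 to 3.16) below the limit of 3.57 and passed through their decitabine values, so their rise there is no support. Of the 7442 genes kept, 1311 rose. PIWIL1 passed in none of the settings (change of -0.37 to 0.47).

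Over all genes, 1159 rose and 800 fell, against 299 and 152 with no replicate block and 734 and 454 with adjustment over all rows. Quantile normalization gave 1225 rises and 1046 falls, median centring 1270 and 875, and the intensity trend 1536 and 1132. With the dimmer genes left out, 1311 rose and 1132 fell among 7442 genes. Leaving out a pair gave 0 rises and 0 falls each time for all genes and all lists. Leaving out single arrays with no replicate block, an alternative chosen after seeing the data, gave these counts over all genes. Dropping the untreated array of replicate 1, 2 or 3 left 321, 107 or 135 rises and 156, 33 or 53 falls. Dropping the decitabine array of replicate 1, 2 or 3 left 180, 95 or 152 rises and 98, 35 or 47 falls. The other piRNA factors had 7 rises, against 2 with no replicate block (1 to 3 with an array left out too), 1 with the dimmer genes left out and 4 over all rows.

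With no replicate block, with or without single arrays, 0 of the other Tudor genes, activators or repressors passed. Tudor genes had 2 falls with quantile normalization, the filter or the trend, and 0 over all rows. Activators had 1 rise with the filter. Repressors had 6 rises with the filter, 5 with the trend and 1 over all rows. The Argonaute and microRNA list had 1 rise with the filter, and 1 rise and 1 fall with the trend. Over all genes, rises and falls were likewise more with the filter or the trend, and fewer over all rows. The filter and the adjustment over all rows change the number of tests and also refit the spread estimated across genes. How much each of these adds was not tested, nor was the cause of the other differences. A scale with no background measure limits what low values can show.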

Other observations

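Genes next to the members were looked at after the data were seen. In the RefSeq gene table of GRCh38.p14, the 9 members have 18 nearest protein-coding or long noncoding neighbours, of which 5 had a named row. Of these 5, 1 rose and none fell, beside 7.79% and 5.37% of all genes. ATP5MJ, a small subunit of mitochondrial ATP synthase and the neighbour of TDRD9, rose by 0.69 (SE 0.14, limma adjusted p = 0.0327, and 0.252 without the block). The other neighbour of TDRD9, RD3L, changed by -0.18. CCDC186 beside TDRD1, RIMBP2 beside PIWIL1 and NCKAP1L beside GTSF1 changed by 0.27, 0.07 and -0.02. None of these 4 passed the test (adjusted p of 0.277 to 0.953).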
